A study of Macaca mulatta with 12 samples.

Results

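RELN, TP73, EBF3, NDNF, NHLH2 and CALB2 are 6 of the 19708 gene rows in a table of raw transcript counts from single nuclei of the rhesus macaque amygdala (Macaca mulatta). They were chosen as genes of reelin signalling and of Cajal-Retzius cells, from their detection together in the same nuclei and from their levels in inhibitory, excitatory and all remaining nuclei of these data. Those levels and that co-detection are therefore given as a description, with no test. RELN, TP73, EBF3, NDNF and NHLH2 were found by symbol, and CALB2 was the row ENSMMUG00000008403, named through a reference table.

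Nuclei came from frozen, surgically removed amygdala, a deep structure of the temporal lobe known for its part in fear learning. The 12 labelled samples, numbered as 3 specimens with 4 libraries each, formed 1 group with no genotype, treatment or age in the labels used here, so the comparisons are between kinds of nuclei. The table held 26400 nuclei with 151526883 unique molecular identifiers (UMIs, 1 for each captured transcript) and a median of 5053.5 UMIs and 2452 genes per nucleus. Each barcode carried 1 of 3 suffixes, and the nuclei of a suffix form a barcode set below (9201, 8900 and 8299 nuclei). No label ties a suffix to a specimen or library.

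The pool therefore counted as 1 sample. Intervals are exact 95% intervals for counting error only, and the barcode sets serve only to show whether a value recurs. A total of 68 barcode sequences occurred in more than 1 set, in 136 nuclei. Presumed doublets, 1862 droplets whose profile resembled 2 nuclei in 1, were left out, and 24538 nuclei were kept. Clusters were built without the 6 genes and without the lists of Cajal-Retzius, reelin pathway, interneuron and related genes used below. Marker genes outside those lists, such as GAD1 and RBFOX3, were open to the clustering. Sums of such markers by cluster are therefore no independent measure. An unnamed row that follows RELN, described below, was also open to it. The clusters gave 4118 inhibitory nuclei (median 5634.5 UMIs), 11000 excitatory nuclei (7970.5 UMIs) and 9420 remaining nuclei (1744 UMIs). Detected genes per nucleus ended at 4999, so shares are shares of the nuclei deposited.

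Reelin, the product of RELN, is a large secreted protein that guides the layering of migrating neurons. In the developing forebrain it is released by Cajal-Retzius cells, early neurons of the outermost cortical layer, and later also by GABA-releasing interneurons. It binds the receptors VLDLR and LRP8 on the receiving cell, which act through the adaptor DAB1. TP73, a transcription factor of the p53 family, is known in Cajal-Retzius cells and in cells with many cilia. EBF3 is a transcription factor of the early B-cell factor family, and NHLH2 is a basic helix-loop-helix transcription factor of developing neurons. NDNF is a secreted protein known in superficial cortical interneurons, and CALB2 encodes the calcium-binding protein calretinin, found in some interneurons and in Cajal-Retzius cells.

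The 6 genes followed different patterns. RELN, NDNF and CALB2 were highest, among the 3 large classes, in inhibitory nuclei, while TP73, EBF3 and NHLH2 differed by less than 2-fold between inhibitory and excitatory nuclei. A cluster of 30 nuclei held RELN, TP73, EBF3 and NDNF together at far higher levels than any class. TP73 had a second site in ependymal-like nuclei, and CALB2 in an inhibitory cluster with little RELN. Levels below are summed counts scaled to 1000000 UMIs of a group (CPM). They are compared only for 1 gene between groups, never between genes, because the table gives no transcript lengths.

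RELN stood at 1392 CPM in inhibitory nuclei (1377 to 1406), with 1406, 1376 and 1393 CPM in the 3 barcode sets. Excitatory nuclei had 19.1 CPM (18.2 to 20.01), and the sets gave 23.1, 17.8 and 16.3 CPM. The sets did not overlap between these classes, and the log2 fold was 6.19 (6.12 to 6.26). Remaining nuclei had 261 CPM in all but 409, 216 and 143 CPM by set. Without the cluster of 30 nuclei the remaining nuclei fell to 75.7 CPM, and the sets came to 71.6, 83.1 and 72.3 CPM. That cluster, which is 0.114% of all nuclei, thus carried most of the RELN of the remaining class and of its spread between sets.

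NDNF stood at 31.9 CPM in inhibitory nuclei (31.8, 29.0 and 35.2 by set) and at 0.638 CPM in excitatory nuclei (0.843, 0.688 and 0.367), a log2 fold of 5.65 (5.27 to 6.05). CALB2 stood at 6.33 CPM in inhibitory nuclei (6.199, 4.87 and 8.04 by set) and at 0.479 CPM in excitatory nuclei (0.499, 0.375 and 0.567), a log2 fold of 3.73 (3.24 to 4.24). For both genes, every set was higher in inhibitory nuclei than in excitatory nuclei.

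TP73 stood at 6.89 CPM in inhibitory nuclei (6.67, 6.89 and 7.14 by set) and at 6.75 CPM in excitatory nuclei (7.05, 6.88 and 6.30), a log2 fold of 0.03 (-0.22 to 0.28). EBF3 had 17 UMIs in all inhibitory and 77 in all excitatory nuclei, or 0.685 and 0.819 CPM, with a log2 fold of -0.26 (-1.11 to 0.51). NHLH2 had 10 and 69 UMIs, or 0.403 and 0.734 CPM, with a log2 fold of -0.86 (-1.99 to 0.10). The sets of the 2 classes overlapped for TP73 and EBF3. For NHLH2 all 3 sets were lower in inhibitory nuclei (log2 -0.55, -0.83 and -1.39). The interval of each of the 3 folds included 0, so a difference was not detectable at this depth.

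Of the 6 genes, 3 were at least 2-fold higher in inhibitory nuclei and 0 in excitatory nuclei. Among all 14901 genes measured in that comparison, 8.46% were at least 2-fold higher in inhibitory and 8.68% in excitatory nuclei. The median log2 fold of the 6 genes was 1.88, against 0.10 over all genes. Against the remaining nuclei, 5 of the 6 genes had enough UMIs, with NHLH2 below the minimum. RELN, NDNF and CALB2 were at least 2-fold higher in inhibitory nuclei (background 9.1%), and TP73 and EBF3 at least 2-fold higher in the remaining nuclei (background 19.4%). Excitatory nuclei were at least 2-fold lower than the remaining nuclei in all 5 genes measured, CALB2 being the one below the minimum (background 21.5%, with 10.2% of genes higher in excitatory nuclei). Without the cluster of 30 nuclei, 3 of the 5 genes were at least 2-fold lower in excitatory nuclei (background 21.5%, with 10.4% higher). Of 4 genes then measured against inhibitory nuclei, RELN, NDNF and CALB2 were at least 2-fold higher in inhibitory nuclei (background 9.21%) and TP73 at least 2-fold lower (background 19.3%). The genes were chosen on these contrasts, so nothing is read from the counts.

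**Figure D1:**
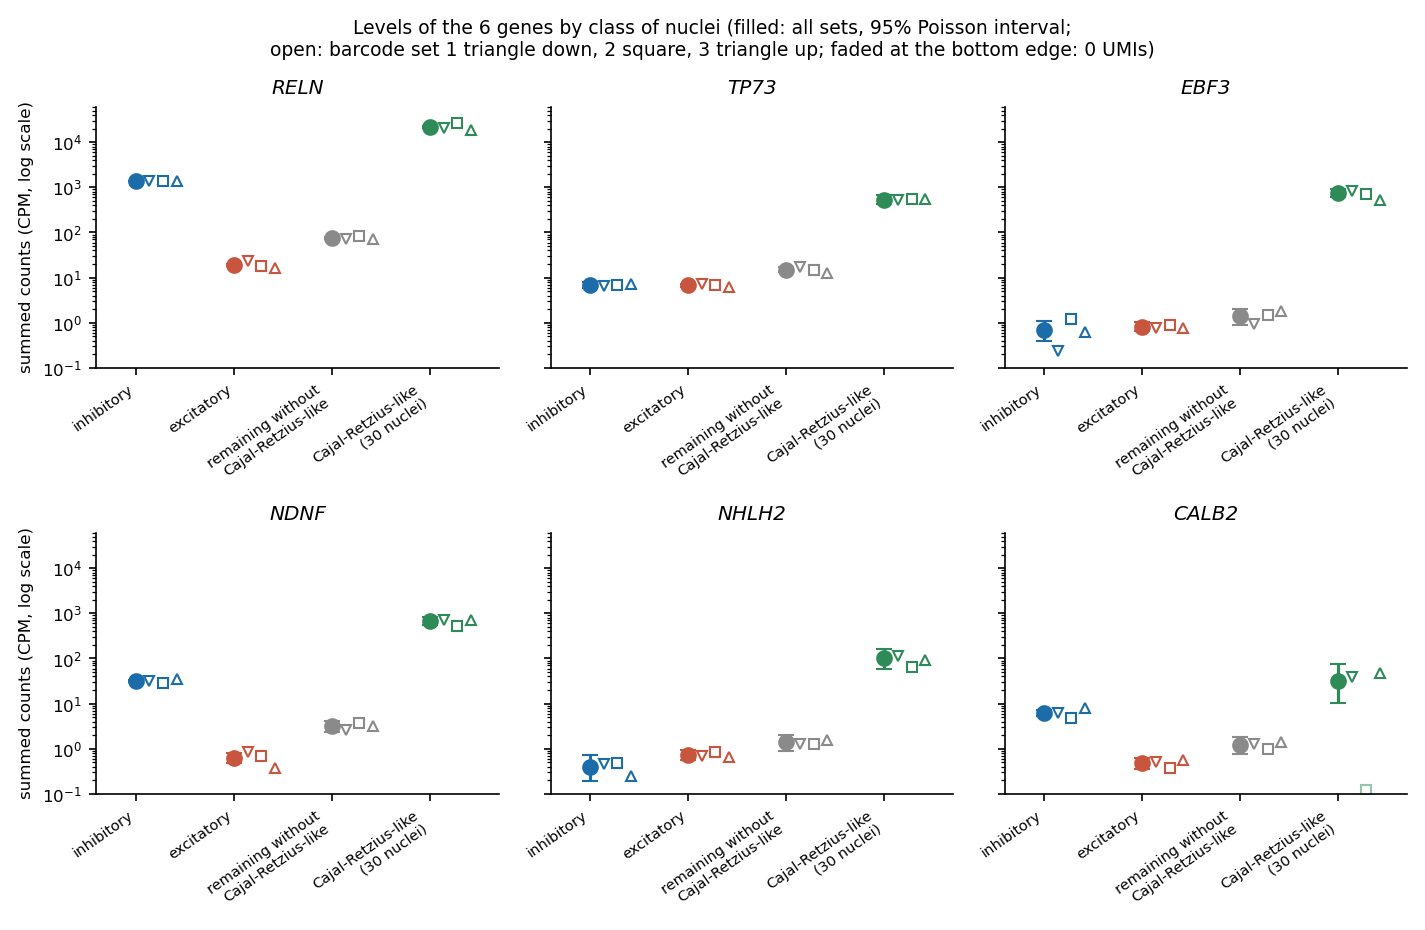
Summed CPM on a log axis for each gene in inhibitory, excitatory, remaining (without the Cajal-Retzius-like cluster) and Cajal-Retzius-like nuclei. Filled points are all barcode sets together with exact 95% Poisson intervals, and open symbols are the 3 sets. RELN runs from 19.1 CPM in excitatory to 21604 CPM in Cajal-Retzius-like nuclei, while TP73 is level between inhibitory (6.89) and excitatory (6.75) nuclei.

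A share of nuclei with at least 1 UMI must be read beside nuclei that should lack the gene, since free RNA enters every droplet. RELN was seen in 51.4% of inhibitory nuclei (49.8 to 52.9%), with a median of 5 UMIs in the positive nuclei and up to 174. It was seen in 11.8% of excitatory nuclei, with a median of 1 UMI, and in 10.2% of astrocyte-like nuclei at a median depth of 1737 UMIs. With every nucleus thinned to 1000 UMIs the shares were 31.1% in inhibitory, 1.81% in excitatory and 6.35% in astrocyte-like nuclei. Shallower nuclei were left out of the thinned values, 2 inhibitory, 0 excitatory and 1237 of the remaining. The excitatory share was thus above that of astrocyte-like nuclei as deposited and below it at equal depth. In excitatory clusters 5 and 10, 7 and 3 nuclei had 10 or more RELN UMIs, up to 61 and 113. The 2 highest of cluster 5, with 61 and 55, joined the cluster of 30 nuclei when presumed doublets were kept, as described below. Of the other excitatory nuclei, 4 had at least 20 RELN UMIs. Of these 4, 3 also had at least 5 UMIs of the other 5 genes together. No nucleus of the astrocyte-like clusters 2 and 19 had more than 3. The part of free RNA in these shares was not tested.

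NDNF was seen in 11.1% of inhibitory nuclei, 0.445% of excitatory nuclei and 0.466% of astrocyte-like nuclei (2.75, 0.109 and 0.262% thinned). CALB2 was seen in 3.21, 0.373 and 0.0862% (0.680, 0.0636 and 0.0189% thinned). TP73 was seen in 3.98% of inhibitory, 5.53% of excitatory and 1.35% of astrocyte-like nuclei, but in 0.583, 0.655 and 0.831% after thinning. At equal depth the TP73 intervals of these 3 groups overlapped (0.374 to 0.866%, 0.512 to 0.824% and 0.605 to 1.11%). EBF3 and NHLH2 were seen in at most 0.636% of inhibitory or excitatory nuclei.

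Across the 24 clusters, RELN fell steeply from the top. The order ran from the cluster of 30 nuclei (cluster 15, 21604 CPM, 20882 to 22345) to the inhibitory clusters 12 (4374 CPM, 4292 to 4458) and 7 (3154 CPM, 3110 to 3199), and no interval overlapped the next. Clusters 7 and 12 held 47.0 and 26.4% of the RELN UMIs of all kept nuclei in 847 and 521 nuclei. The mural-like cluster 24 came next with 437 CPM, but 117 of its 129 UMIs lay in 1 nucleus, and without that nucleus it had 42.2 CPM. The inhibitory clusters 14 (396 CPM), 1 (297 CPM) and 9 (91.4 CPM) had less.

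Oligodendrocyte-like nuclei had more RELN than astrocyte-like nuclei. They had 258 CPM (223 to 296), with 267, 226 and 276 CPM in the 3 sets, against 64.7 CPM in astrocyte-like nuclei (59.9 to 69.8). The smaller of the astrocyte-like clusters, cluster 19 with 260 nuclei, had 159 CPM (124 to 201) and RELN in 22.3% of nuclei. RELN was seen in 33.1% of these 438 nuclei (28.7 to 37.7%; 22.5% thinned), with at most 4 UMIs in any nucleus, so the level was spread over many nuclei. Their summed inhibitory markers (GAD1, GAD2, SLC32A1, DLX1 and DLX6) were 49.2 CPM, below the 62.7 CPM of astrocyte-like nuclei and the 816 CPM of inhibitory nuclei. Inhibitory clusters were named by GAD1 plus GAD2, so nothing is read from the gap to that class.

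TP73 was highest in cluster 15 (537 CPM, 428 to 665) and next in the ependymal-like cluster, the ciliated lining of the ventricles, with 97.5 CPM (82.6 to 114). In the 794 ependymal-like nuclei, 132 had TP73 (16.6%; 8.39% thinned), with at most 3 UMIs, and the sets gave 111, 83.3 and 99.3 CPM. Cluster 18, excitatory, was the third at 12.3 CPM (8.998 to 16.5), and each later neighbour among the next 5 overlapped the one before it. The ependymal-like nuclei held 13.04% of the kept TP73 UMIs, and 0 of them had 4 or more of the 6 genes. EBF3 had 1 UMI and NHLH2 3 UMIs in those nuclei. CALB2 was seen in 0 of the 794, which allows a share of up to 0.378%. RELN was seen in 9.32% of them, near the 10.2% of astrocyte-like nuclei. TP73 in ependymal-like nuclei thus came with few or no UMIs of EBF3, NHLH2 and CALB2.

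EBF3 had its highest level in cluster 15, which held 49.8% of the kept EBF3 UMIs, with 32.5% in the much larger excitatory class. Of the nuclei with EBF3, 19.9% were in cluster 15 and 51.5% were excitatory. It stood at 754 CPM in cluster 15 (624 to 903) and at 10.2 CPM in the next cluster, the mural-like one, from 3 UMIs (2.09 to 29.7). NHLH2 was at 102 CPM in cluster 15 (58.5 to 166) and next at 11.04 CPM in microglia-like nuclei, from 4 UMIs (3.01 to 28.3). NDNF followed the order of RELN at the top, with 678 CPM in cluster 15, 128 CPM in cluster 12 (114 to 143) and 62.9 CPM in cluster 7 (56.8 to 69.6).

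CALB2 went its own way. Its level in cluster 15 was 32.0 CPM from 5 UMIs (10.4 to 74.6), which overlapped that of inhibitory cluster 9 at 29.5 CPM (24.5 to 35.3). Cluster 9 held 52.4% of all kept CALB2 UMIs, and 10.9% of its 923 nuclei had CALB2 (2.49% thinned). The unnamed cluster 3, shallow nuclei with a median of 628 UMIs, came next at 16.3 CPM (8.66 to 27.8), followed by inhibitory cluster 12 at 6.06 CPM (3.39 to 10.003). These neighbours overlapped pair by pair.

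**Figure D2:**
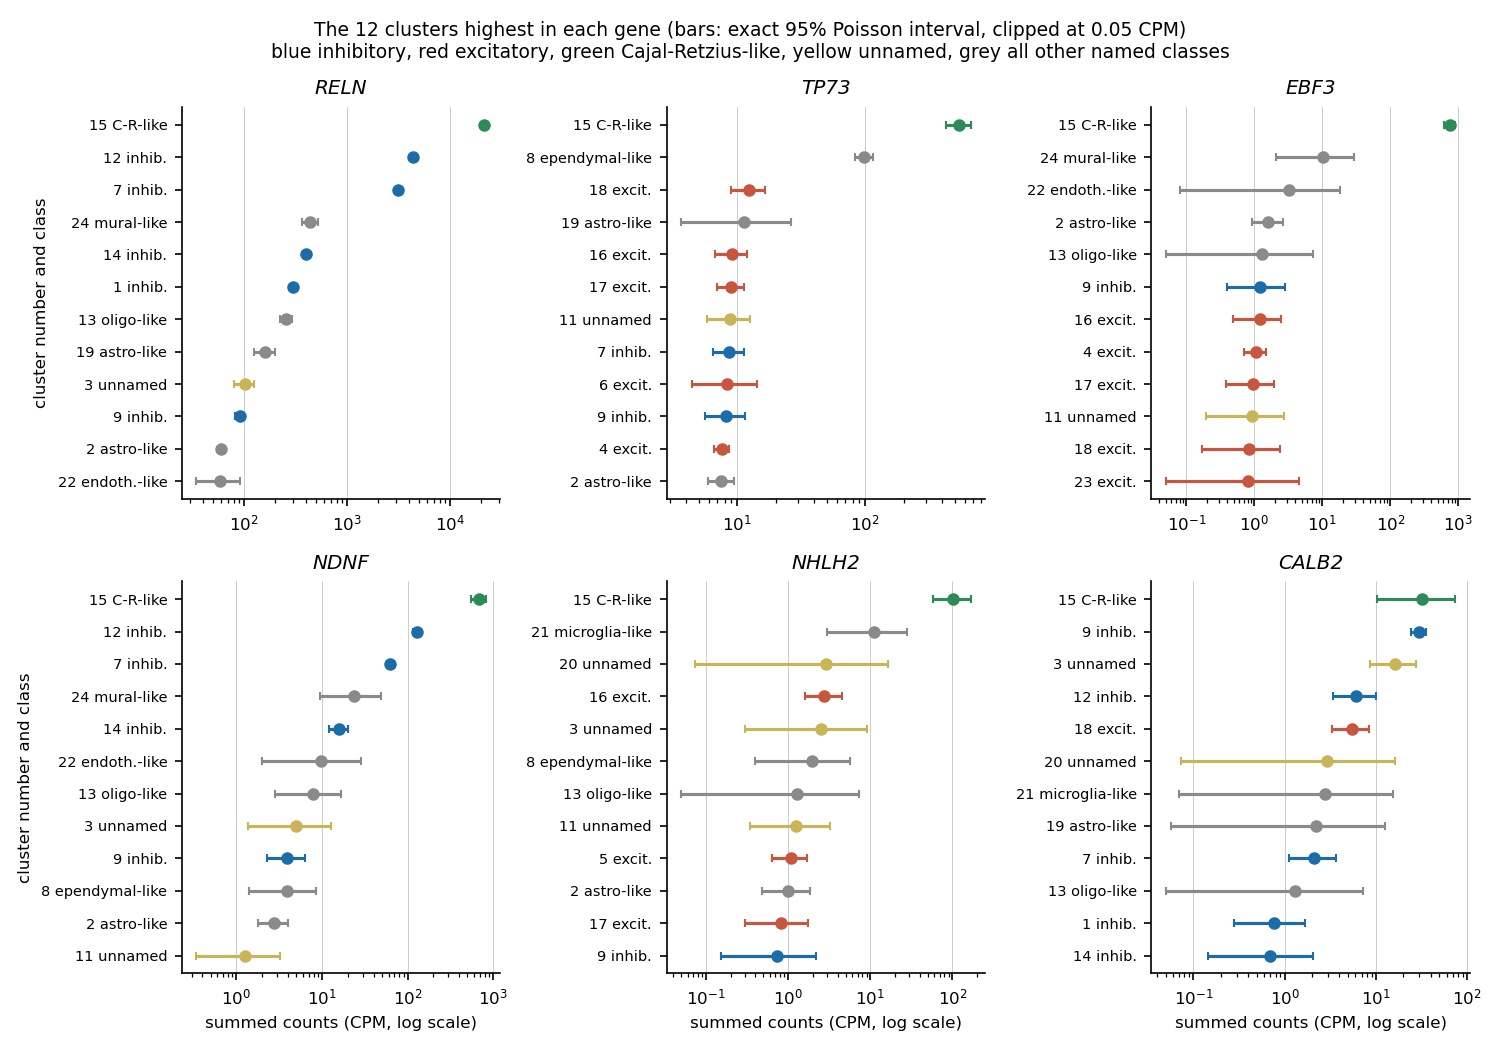
For each gene, the 12 clusters with the highest summed CPM, on a log axis with exact 95% Poisson intervals. Cluster 15 leads in all 6 panels, clusters 12 and 7 follow for RELN and NDNF, cluster 8 (ependymal-like) for TP73, and cluster 9 overlaps cluster 15 for CALB2.

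By the fixed rule on marker genes, cluster 15 was named Cajal-Retzius-like. The rule used RELN, TP73, EBF3, NDNF, NHLH2, CALB2 and CACNA2D2, a calcium channel subunit, so these levels chose the name and do not support it. LHX1 and LHX5, also on that marker list, were not analysed here. The cluster held 30 nuclei, 21, 5 and 4 in the 3 barcode sets, with a median of 5215 UMIs. Its size depended on the removal of doublets: with presumed doublets kept, the same steps gave a cluster of 52 nuclei, 23, 15 and 14 by set. The 52 contained all 30, together with 20 nuclei that had been presumed doublets (1, 10 and 9 by set) and 2 kept in excitatory cluster 5.

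The levels of RELN, TP73, EBF3 and NDNF moved little between the narrower and the wider cluster. RELN was at 21604 CPM in the 30 nuclei, 19427 CPM in the 52 and 19662 CPM in the 20 presumed doublets. TP73 was at 537, 531 and 608 CPM and EBF3 at 754, 680 and 699 CPM. NDNF was at 678, 633 and 666 CPM. NHLH2 and CALB2, with few UMIs, fell more, from 102 to 82.9 and 74.9 CPM and from 32.0 to 23.2 and 16.6 CPM. The summed astrocyte markers (AQP4, GFAP, SLC1A2, SLC1A3 and GJA1) stood at 403 CPM in the 30, 1498 CPM in the 20 and 13687 CPM in astrocyte-like nuclei. Their part in the doublet scores of the 20 was not tested, nor whether these droplets held 1 nucleus or 2.

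Within the 52 nuclei, RELN was found in all 52, with 22 UMIs in the lowest, 107.5 in the median and 273 in the highest nucleus. TP73 was found in 48 of 52 (0, 3 and 9 UMIs), EBF3 in 48 (0, 3 and 11) and NDNF in 47 (0, 3 and 11). NHLH2 was found in 18 (34.6%, 22.0 to 49.1%) and CALB2 in 6 (11.5%, 4.35 to 23.4%), each with a median of 0. RELN, TP73, EBF3 and NDNF thus marked nearly every nucleus of the cluster, and CALB2 few. The 52 nuclei, 0.197% of all nuclei, held 60.8% of all EBF3 UMIs, 17.5% of NHLH2, 16.3% of NDNF, 12.6% of RELN, 11.9% of TP73 and 2.63% of CALB2.

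The levels recurred in every barcode set. In the 52 nuclei, RELN was at 18198, 22745 and 17849 CPM in the 3 sets, TP73 at 465, 657 and 498 CPM, EBF3 at 713, 736 and 577 CPM and NDNF at 649, 645 and 599 CPM. NHLH2 had 13, 6 and 6 UMIs and CALB2 5, 1 and 1. Every set was far above the inhibitory and excitatory classes for the first 4 genes.

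Summed markers of inhibitory and excitatory neurons were below the level of those classes in the 30 nuclei, though not every excitatory marker was. The 5 inhibitory markers summed to 51.1 CPM, with DLX1 and DLX6 at 0, against 816 CPM in inhibitory nuclei. The 6 excitatory markers summed to 262 CPM, none of them at 0, against 1220 CPM in excitatory nuclei. SLC17A7 was at 12.8 CPM in the 30 nuclei, against 85.9 CPM in the excitatory cluster lowest in it, cluster 6. SV2B, at 166 CPM, lay within the range of excitatory clusters (50.3 CPM in cluster 10 to 273 CPM in cluster 16). SLC17A6, at 38.4 CPM from 6 UMIs, was above the 5.69 CPM of excitatory nuclei. RBFOX3, the neuronal nuclear protein NeuN, was at 12.8 CPM in the 30 and 66.3 CPM in the 52 nuclei, against 836 CPM in excitatory nuclei. The 4 immature neuron markers summed to 454 CPM, with SOX11 at 0, above the 315 CPM of inhibitory and 197 CPM of excitatory nuclei and below the 508 CPM of the unnamed cluster 3. The astrocyte markers, at 403 CPM, were near the 364 and 359 CPM of inhibitory and excitatory nuclei. The part of these markers in the levels of the 6 genes was not tested. Microglial, endothelial and mural markers each summed to at most 25.6 CPM.

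Other Cajal-Retzius genes, a list that was kept out of the clustering, gave a mixed picture. Of its 13 genes 11 had a row, and 3 had enough UMIs for a comparison of the 30 nuclei with all other kept nuclei. All 3 were at least 2-fold higher in the 30 nuclei, where 15.7% of 4064 measured genes were. Each of the 3 had enough UMIs only through its level in the 30 nuclei. The filter thus fixed that count, and nothing is read from it. TBR1, a transcription factor of early cortical neurons, was at 70.3 CPM against 5.44 (log2 3.69, 2.68 to 4.54). CACNA2D2, which also served in the naming, was at 147 CPM against 12.4 (log2 3.57, 2.91 to 4.16). EBF1, a relative of EBF3, was at 134 CPM against 19.0 (log2 2.82, 2.13 to 3.44). EBF1 was however found in 20% of the 30 nuclei, and it was far higher in mural-like (2367 CPM) and endothelial-like (1573 CPM) nuclei.

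SLC17A6, a vesicular glutamate transporter, had 6 UMIs in the 30 nuclei (38.4 CPM, 14.1 to 83.5) against 5.69 CPM in excitatory nuclei. EBF2, NHLH1 and ZIC1 had no UMI even in the 52 nuclei, which allows a level of up to 9.95 CPM. CXCR4, a chemokine receptor, had 1 UMI there. All 4 measured relatives of the 6 genes were at least 2-fold higher in the 30 nuclei (background 15.7%), and 1 of these is EBF1, already counted above. These 4 also had enough UMIs only through their level in the 30 nuclei, so nothing is read from the count. Calbindin (CALB1), another calcium-binding protein, was at 89.5 CPM in the 30 nuclei against 18.5 in all others (log2 2.27, 1.40 to 3.02), and EBF4 at 128 CPM against 37.7 (log2 1.76, 1.05 to 2.39).

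Detection of several of the 6 genes in 1 nucleus was rare outside that cluster. Of 26400 nuclei 5600 had 1 of the genes, 697 had 2, 36 had 3, 35 had 4, 17 had 5 and 2 had all 6. The 54 nuclei with 4 or more were spread over the barcode sets as 24, 17 and 13, and 47 of them lay in the cluster of 52. Of the 33 kept nuclei with 4 or more, 26 were in the cluster of 30. The other 7 were in clusters 5, 9 and 10, had 7125 to 12847 UMIs each, and all 7 had RBFOX3. In this group of 33, no barcode sequence was shared between sets.

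Plotted nucleus by nucleus, 684 nuclei had at least 20 RELN UMIs, and 584 of these were inhibitory. Of those 584 inhibitory nuclei, 19 had at least 5 UMIs of the other 5 genes together, with a median of 1. In the cluster of 52 nuclei all had at least 20 RELN UMIs and 47 at least 5 of the others, with a median of 10.5. Nuclei with at least 20 RELN UMIs were thus mainly inhibitory. Of the 71 that also had at least 5 UMIs of the other genes, 47 were in the Cajal-Retzius-like cluster and 19 were inhibitory. That cluster was named with these same genes, so this is a description.

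**Figure D3:**
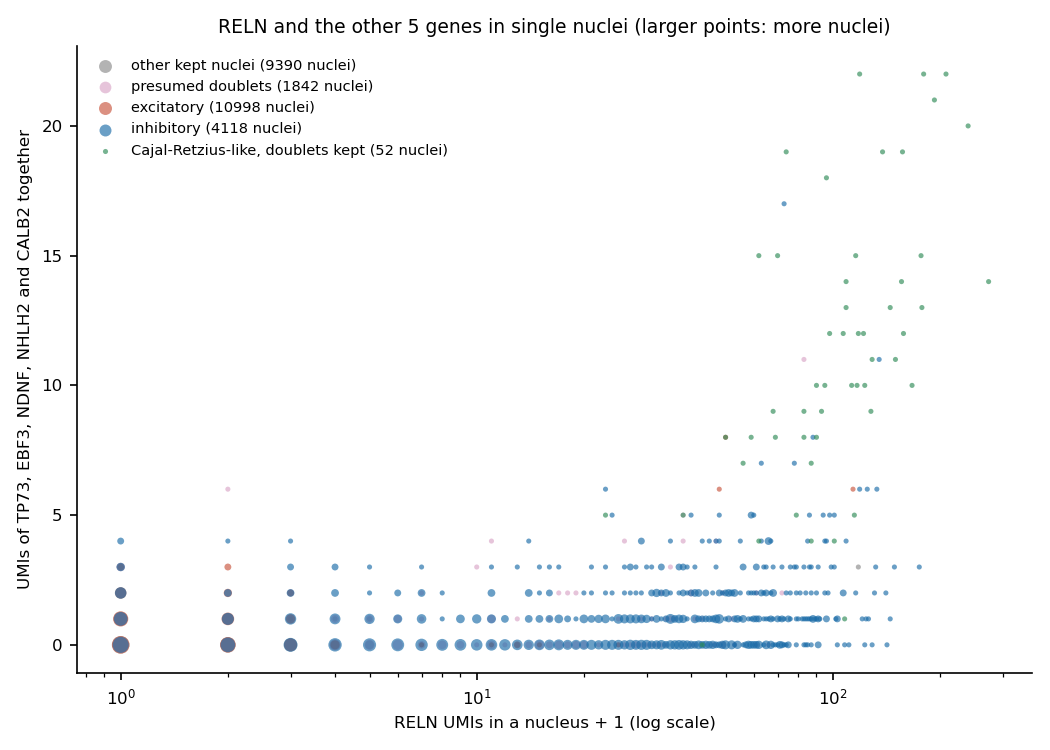
RELN UMIs plus 1 in a nucleus (log axis) against the summed UMIs of the other 5 genes, with point size for the number of nuclei and colour for the class. The 52 Cajal-Retzius-like nuclei lie at 22 to 273 RELN UMIs and mostly at 5 or more UMIs of the other genes, while most inhibitory nuclei of like RELN count lie below 5.

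Over the pooled nuclei outside the cluster of 52, RELN was seen about as often with TP73 as without it. RELN was seen in 18.8% of the 1120 TP73-positive nuclei (16.6 to 21.3%) and in 18.7% of nuclei without TP73. These shares pool classes that differ in RELN. In inhibitory nuclei with 0, 1 to 9 and 10 or more RELN UMIs, TP73 was seen in 3.35, 4.50 and 4.71% (0.564, 0.700 and 0% thinned). In cluster 7 it was seen in 4.02, 6.30 and 7.01%. The intervals of these strata overlapped. EBF3-positive nuclei outside the cluster numbered 117, of which 15 had TP73 (12.8%, 7.36 to 20.3%), against 4.21% of nuclei without EBF3. After thinning no EBF3-positive nucleus outside the cluster had TP73. EBF3 had only 132 UMIs there before thinning, so nothing is read from this absence. In the cluster itself, 46 of the 48 TP73-positive nuclei had EBF3 and 45 had NDNF.

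Over all inhibitory nuclei, RELN was seen more often in nuclei with NDNF and less often in nuclei with CALB2. It was seen in 86.7% of the 457 NDNF-positive inhibitory nuclei (83.2 to 89.6%) and in 47.0% of those without NDNF. After thinning the values were 84.1 and 29.6%, and the median depths were 6160 and 5578 UMIs. RELN was seen in 31.1% of the 132 CALB2-positive nuclei (23.3 to 39.7%) and in 52.1% of those without CALB2 (7.14 and 31.3% thinned, from 28 positive nuclei). Within clusters CALB2 showed no such separation. At 0, 1 to 9 and 10 or more RELN UMIs it was seen in 0.446, 1.68 and 1.56% of cluster 7 and in 1.65, 1.11 and 2.90% of cluster 12, and in 11.2 and 10.2% of cluster 9 at 0 and at 1 to 9. Having any second gene was seen in 22.5% of the inhibitory nuclei with at least 1 of the 6 genes, and in 5.06% of such excitatory nuclei.

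NDNF detection rose with the RELN count over the pooled inhibitory nuclei. Inhibitory nuclei with 0, 1 to 9 and 10 or more RELN UMIs had NDNF in 3.05, 5.34 and 40.4% of 2002, 1310 and 806 nuclei (0.635, 6.30 and 16.8% thinned). The step was seen in clusters 7 (3.13, 7.98 and 43.9%) and 12 (19.0, 23.3 and 49.03%). These clusters gave 385 and 310 of the 806 nuclei, but 224 and 121 of the 2002. The pooled strata thus differ in their mix of clusters. After thinning, the intervals at 1 to 9 and at 10 or more overlapped in cluster 7 (5.80 to 11.4% and 6.43 to 24.3%). They also overlapped in cluster 12 (8.73 to 16.5% and 11.4 to 31.3%). In cluster 1 the step was not seen, with NDNF in 0 of the 56 nuclei of 10 or more RELN UMIs. That allows a share of up to 5.36% by the limit of 3 counts and 6.38% by the exact interval. Cluster 14 gave 5.13, 8.04 and 8.33%, the last from 48 nuclei (2.32 to 19.98%).

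**Figure D4:**
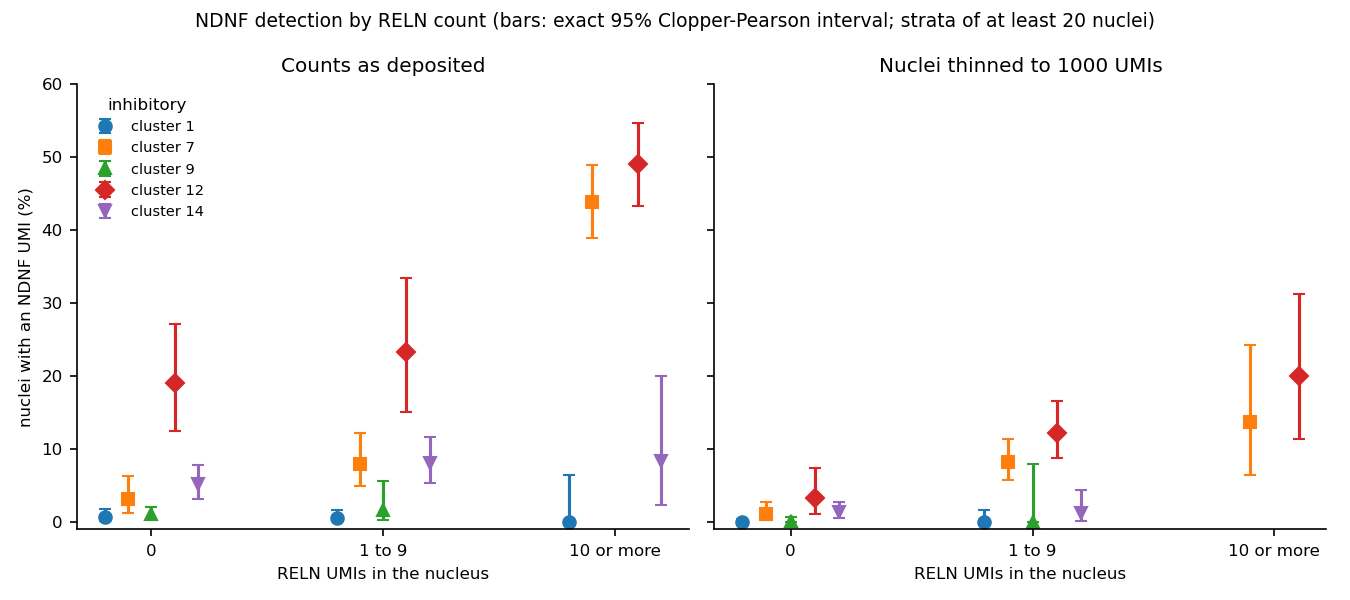
Share of nuclei with an NDNF UMI by RELN UMIs in the nucleus for each inhibitory cluster, as deposited (left) and thinned to 1000 UMIs (right), with exact 95% Clopper-Pearson intervals. As deposited, clusters 7 and 12 rise from 3.13 and 19.0% at 0 RELN UMIs to 43.9 and 49.03% at 10 or more. Cluster 1 gives 0.626, 0.552 and 0% over the strata.

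Interneuron genes, also kept out of the clustering, described the RELN-rich nuclei. Of 14 such genes measured, 13 were at least 2-fold higher in inhibitory than in excitatory nuclei (background 8.46%), led by LHX6 (log2 6.66), SP8 (4.64), SV2C (4.24), ADARB2 (3.86), NOS1 (3.68) and VIP (3.51). SP8 had enough UMIs only through inhibitory nuclei, so nothing is read from its part in that count. ADARB2, a gene of interneurons from the caudal ganglionic eminence, was at 11739 CPM in inhibitory nuclei with 10 or more RELN UMIs, 3763 CPM with 1 to 9 and 6522 CPM with 0. LHX6, a factor of interneurons from the medial ganglionic eminence, was at 26.7, 133 and 110 CPM in the same order. High ADARB2 was not particular to RELN-rich nuclei. In nuclei with 0 RELN UMIs, ADARB2 was at 14159 CPM in cluster 7 and at 12024 CPM in cluster 9. LHX6 was at 0.688 and 1.46 CPM in these nuclei. Cluster 9 had RELN at only 91.4 CPM. Cluster 7 had ADARB2 at 13752 CPM, the cannabinoid receptor CNR1 at 2340 CPM and LAMP5 at 1.96 CPM. Cluster 12 had ADARB2 at 10936 CPM, CNR1 at 344 CPM and LAMP5 at 81.7 CPM. Clusters 1 and 14 held lower RELN with LHX6 at 197 and 207 CPM. In the 30 Cajal-Retzius-like nuclei ADARB2 was at 25.6 CPM, and LHX6 had no UMI, which allows up to 19.2 CPM.

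The reelin pathway was measured in full for 25 of its 26 genes, the other not being analysed here. Between inhibitory and excitatory nuclei 2 of the 25 were at least 2-fold higher in inhibitory nuclei (background 8.46%) and 1 lower (8.68%), with a median log2 fold of -0.04 against 0.10 over all genes. The receptor LRP8 was at 132 CPM in inhibitory and 44.2 CPM in excitatory nuclei (log2 1.58, 1.51 to 1.64), and EFNB1, an ephrin, at 5.48 and 2.15 CPM (log2 1.35). The receptor VLDLR was at 18.02 and 11.1 CPM (log2 0.69), and the adaptor DAB1 at 993 and 1607 CPM (log2 -0.69). ADAMTS3, a protease that cleaves reelin, was at 47.5 CPM in inhibitory and 335 CPM in excitatory nuclei (log2 -2.82, -2.90 to -2.73). RELN and ADAMTS3 thus differed in opposite directions between these classes.

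In the 30 Cajal-Retzius-like nuclei, the counts for the pathway were near those for all genes. Of 16 pathway genes with enough UMIs, 4 were at least 2-fold higher there than in all other nuclei and 3 lower (background 15.7% higher and 17% lower). DAB1 was at 243 CPM against 1386 (log2 -2.51, -3.01 to -2.06), and ADAMTS3 at 25.6 CPM against 254 (log2 -3.31, -5.19 to -1.96). NCK2, an adaptor protein, had 1 UMI there. ADAMTS2, another protease that cleaves reelin, was at 128 CPM against 18.02 (log2 2.83, 2.11 to 3.46), LRP8 at 153 CPM against 61.1 (log2 1.33, 0.69 to 1.90), and the kinases YES1 and LIMK1 had log2 folds of 1.95 and 1.05. VLDLR had 1 UMI. ADAMTS2, LRP8 and YES1 had enough UMIs only through their level in the 30 nuclei, and ADAMTS3 and NCK2 only through all other nuclei.

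Of 9 measured relatives of the 6 genes, 3 differed at least 2-fold between inhibitory and excitatory nuclei, 1 higher (background 8.46%) and 2 lower (8.68%). The calcium-binding protein secretagogin (SCGN) was higher in inhibitory nuclei (log2 4.61), and CALN1 (-2.36) and TP63 (-1.03), a relative of TP73, were lower. SCGN and TP63 had enough UMIs only through the class where they were higher, so nothing is read from these counts. EBF1 and EBF4 differed by 0.10 and 0.23. Of the other Cajal-Retzius genes, CACNA2D2 was higher in inhibitory nuclei (log2 3.92), and TBR1 (-4.51) and SLC17A6 (-2.50) were lower. TBR1 and SLC17A6 had enough UMIs only through excitatory nuclei.

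Some rows followed the members over the 23 clusters of at least 50 nuclei. The values are Pearson's r of log2(CPM + 1) among 14703 genes, and clusters share libraries and differ in depth, so they are descriptions only. The row nearest to RELN was ENSMMUG00000031298, which has no symbol in the reference tables (r = 0.93), followed by GAD2 (0.86), NDNF (0.85), the neuregulin receptor ERBB4 (0.82) and GRIP2 (0.82). Nuclei with RELN had that unnamed row in 41.4% of the inhibitory class, and nuclei without RELN in 1.60%. There were 11.1 RELN UMIs for each of its UMIs in inhibitory nuclei, 12.1 in excitatory nuclei and 9.80 in the 30 Cajal-Retzius-like nuclei. The ratio was 21.7 in astrocyte-like and 27.7 in ependymal-like nuclei, where the row had 31 and 3 UMIs. Its counts thus kept a like ratio to RELN in the neurons and in the Cajal-Retzius-like nuclei. Whether the row is a part of the same gene was not tested. The row was open to the clustering, and it is among the 10 leading genes of clusters 7, 12 and 15. Its part in forming these RELN-rich clusters was not tested.

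For NDNF the nearest were that row (0.87), RELN (0.85) and the chemokine CXCL14 (0.81), and for CALB2 the neurokinin B precursor TAC3 (0.78), the nicotinic receptor subunit CHRNA2 (0.72) and COCH (0.72). TP73 was nearest to SLC28A1 (0.89), ENSMMUG00000046343 (0.88) and FAM47E (0.87). EBF3 was nearest to ENSMMUG00000043257 (0.89) and the laminin chains LAMC3 (0.86) and LAMA2 (0.84), and NHLH2 to OLR1 (0.84), EPS8L1 (0.83) and PPM1M (0.82). The last 2 members had few UMIs outside cluster 15, which is too small to enter these values.

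The genes that led nuclei with 3 or more of the 6, 61 kept nuclei, were RELN, ENSMMUG00000031298, EBF3, CASQ2, NDNF, IFI16, TP73, DACH1, ENSMMUG00000044039 and SYNE2. CASQ2, the calcium-binding protein calsequestrin of cardiac muscle, was at 265 CPM in those nuclei and at 0.374 CPM in all others. In the 30 Cajal-Retzius-like nuclei CASQ2 was found in 76.7%, against 0.192% of the other kept nuclei, and IFI16, a DNA sensor induced by interferon, in 80% against 2.87%. CASQ2, IFI16 and ENSMMUG00000031298 were open to the clustering, so their levels in that cluster are no independent measure. The genes that led the 1046 TP73-positive nuclei were RELN, ENSMMUG00000031298, ENSMMUG00000015322, CASQ2, EBF3, SLC47A2, ARMC3, ENSMMUG00000000447 and FHAD1 after TP73 itself. RELN there stood at 707 CPM against 274 in nuclei without TP73, though it was seen in 20.5 and 18.3% of them.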

How the data were processed

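Single-nucleus libraries of 12 labelled samples were prepared with the 10x 3′ kit, per the labels. Reads were handled with fastp and Cell Ranger 3.0.0, and GRCh38 is listed as a genome build, per the submitters' processing notes. How that build was used for macaque reads is not given in the sources used here. The deposited table holds raw UMI counts that the authors made, per gene row and nucleus. CALB2 was named through a reference table, and 59 of 63 list genes and 60 of 63 marker genes had a row. Presumed doublets were marked with Scrublet in scanpy 1.11.5 at 0.8% per 1000 nuclei of each barcode set. Nuclei were clustered on 2000 variable genes, 30 principal components and 15 neighbours (Leiden, resolution 0.5). Inhibitory clusters had GAD1 plus GAD2 above 300 CPM, and excitatory clusters SLC17A7 above 75, SV2B above 45 and RBFOX3 above 600 CPM. Other names needed a mean log2 marker ratio above 3, with 5 CPM added and a lead of at least 1. Thresholds came from an earlier analysis of these data. A gene was measured with at least 50 UMIs on a side and 10 expected on each, and was called at 2-fold. Levels have exact 95% Poisson intervals, shares Clopper-Pearson intervals and folds exact conditional intervals. A count of 0 was given the limit of 3 counts. The fold script was tested on simulated data. Members, lists and rules were chosen with earlier results of these data known. Genes were named as members, as listed genes, as the nearest rows by correlation over clusters, or as the 10 leading genes by ratio with 10 CPM added and at least 20 UMIs. Alternatives were thinning, detection at 2 UMIs, keeping doublets, another resolution, a gate on marker UMIs per nucleus in place of clusters, a mean over nuclei in place of summed counts, and leaving out clusters or barcode sets. No replicate test was possible, since no barcode set is tied to a sample.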

Additional observations from a re-analysis of the deposited data

How the results depend on the processing

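The 3 genes higher in inhibitory than in excitatory nuclei, and the 3 higher than in the remaining nuclei, numbered 2 after thinning, where CALB2 had too few UMIs to be measured (log2 3.47 and 3.04), and 3 under the other alternatives run. Of 168 alternative values for 18 class folds, 110 stayed within the counting interval and 58 lay outside it. Of the 168, 7 had the other sign, all for folds of inhibitory over excitatory nuclei that were within 2-fold. NHLH2 went from -0.86 to 0.68 (log2) after thinning, EBF3 from -0.26 to 0.14 without barcode set 1, and TP73 from 0.03 to between -0.17 and -0.02 under 5 alternatives. Without the excitatory cluster highest in PROX1, 1 gene, NHLH2 (log2 -1.04), was at least 2-fold higher in excitatory than in inhibitory nuclei, against 0. Thinning to 1000 UMIs, or leaving out the Cajal-Retzius-like cluster, left 3 genes higher in remaining than in excitatory nuclei, against 5, and 1 higher in remaining than in inhibitory nuclei, against 2. The Cajal-Retzius-like cluster had 30 nuclei, 52 with presumed doublets kept and 9 without barcode set 1. Nuclei with 4 or more genes numbered 33, 54 with presumed doublets kept, 15 where 2 UMIs counted as detected, 4 after thinning and 11 without barcode set 1. The share with a second gene was 11.99%, and 10.3% at 2 UMIs, 6% after thinning and 13.4% without the PROX1 cluster. In inhibitory nuclei it was 22.5%, and 10.3% at 2 UMIs and 7.91% after thinning. The causes were not tested. Depth limits EBF3, NHLH2 and CALB2 most, with few UMIs outside the groups named. Leaving out the Cajal-Retzius-like cluster, and the alternatives for its size and for nuclei with 4 or more genes, were chosen after seeing the data. No paired analysis was possible because the nuclei are not tied to samples and no test was made.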
